A study of Homo sapiens with 6 samples.

Results

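Ion channel genes were compared between Daoy cells that overexpressed mutant or wild-type ZBTB7B, a zinc-finger transcription factor. The group holds the voltage-gated sodium, calcium and HCN channels and all potassium channels with their accessory subunits. Members were the protein-coding genes of GENCODE release 29 named KCN, SCN with an A or B suffix, CACNA, CACNB, CACNG or HCN, with CACNA1A left out. They numbered 140 of the 60554 gene identifiers counted, and 92 of them had enough reads for a test.

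Daoy cells are a long-established human tumour line, derived from a medulloblastoma of the cerebellum. In 3 libraries, called ZFmut, cells carried a lentiviral ZBTB7B with the substitution R363L in its zinc-finger domain, and in 3 libraries, called WT, they carried lentiviral wild-type ZBTB7B. Both groups were exposed to virus for 72 hr (multiplicity of infection 15) in medium with 10% serum, over a culture of 4 days, and total RNA was sequenced. No library of cells without a ZBTB7B transgene was used here. Every difference below is therefore between cells with the mutant and cells with the wild-type transgene, which also differed in the level of ZBTB7B RNA. None is between a protein and its absence. The labels do not say whether the replicates were separate cultures; the p-values then rest on a spread among these samples that may be no more than technical. In bulk RNA, fewer cells of a type and less RNA per cell cannot be told apart.

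Reads assigned to genes numbered 22236214 to 102730428 per ZFmut library and 28429913 to 56873989 per WT library. ZBTB7B itself reached 555, 547 and 627 CPM (reads per 1000000 gene reads, with TMM scaling) in ZFmut replicates 1 to 3, against 899, 863 and 951 CPM in WT replicates 1 to 3. WT libraries held 1.57 times as much, a log2 difference of -0.65 ± 0.060 (SE, ZFmut minus WT, edgeR adjusted p = 1.39e-06), with transgene and endogenous reads counted together. The part of this difference in the channel results was not tested. Of the cerebellar lineage markers, ZIC1, ZIC2, PAX6, GLI1 and GLI2 exceeded 1 CPM, while ATOH1 had 7 reads in the ZFmut libraries and 1 in the WT libraries. Only GLI1 of this list passed the threshold, as lower in ZFmut (log2 difference -0.34, edgeR adjusted p = 0.00734). The 8 neuronal markers summed to 228 to 267 CPM in ZFmut and 208 to 221 CPM in WT libraries, most of it from NEFL; SNAP25 and NEFL were higher and MAP2 lower in ZFmut. Glial markers summed to 8.17 to 8.64 CPM in ZFmut and 8.60 to 9.22 CPM in WT libraries. Among them AQP4 and MBP were lower and GFAP and OLIG2 higher in ZFmut, and AQP4, the water channel of astrocytes, had 13 reads in ZFmut and 173 in WT libraries. The 4 muscle markers summed to 0.918 to 1.296 CPM in ZFmut and 0.915 to 1.11 CPM in WT, and the 4 haematopoietic ones to 1.38 to 1.61 CPM in ZFmut and 0.791 to 1.20 CPM in WT, most of it from CD4. Of these, DES and CD4 were higher and ACTA1 lower in ZFmut. No marker was at 0 in every library. The part of these markers in the channel results was not tested.

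Voltage-gated channels open or close a pore as the membrane potential changes. Sodium and calcium channels carry inward current that depolarises a cell, while most potassium channels carry outward current that repolarises it or holds it at rest. HCN channels open on hyperpolarisation and carry the pacemaker current, and low-threshold T-type calcium channels open close to the resting potential. In neurons these families set firing patterns, and tumour cells that do not fire also transcribe many of them.

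Channel genes moved in both directions, with more of them lower in ZFmut. With edgeR, at a Benjamini-Hochberg threshold of 0.05 over all 18683 tested genes, 16 of the 92 tested members (17.4%) were higher in ZFmut, against a background of 17.2% of all tested genes. A further 26 members (28.3%) were lower in ZFmut, against a background of 18.4%, and 50 did not pass. The median log2 difference of the tested members was -0.07, against -0.004 over all tested genes, with a range from -3.99 to 3.78. Among the 33 members of at least 5 CPM in 3 libraries the median was -0.0098, against -0.00998 over all genes that passed that filter. At least 2-fold differences were called in 3 higher and 9 lower members, while 1.57% of all tested genes passed with a 2-fold or larger rise and 2.63% with a 2-fold or larger fall. Groups did not overlap in 39 of the 42 called members (92.9%), beside 95.8% of all called genes. These 39 are 42.4% of the tested members, where 34.1% of all tested genes were called with no overlap, and the other 3 called members were KCND1, KCNAB1 and CACNA1B.

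The summed level of all members did not separate the groups. Over the 140 members it was 837, 830 and 867 CPM in ZFmut replicates 1 to 3, against 822, 855 and 856 CPM in WT replicates 1 to 3, and the groups overlapped.

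**Figure D1:**
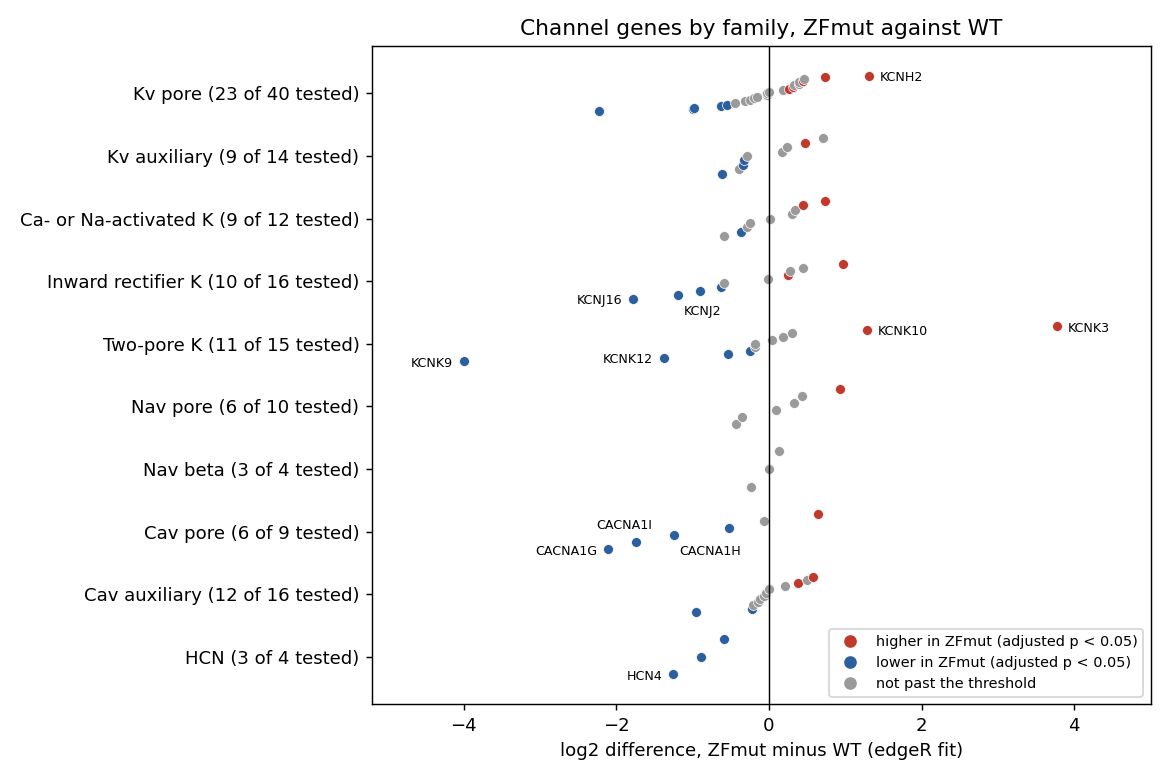
Log2 differences (ZFmut minus WT) of the 92 tested channel genes by family, each point a gene, red where higher and blue where lower in ZFmut at an adjusted p under 0.05 and grey where not past it. All 3 tested HCN genes and all 3 T-type calcium genes (CACNA1G, CACNA1H and CACNA1I) lie left of 0, and KCNK9 at -3.99 and KCNK3 at 3.78 rest on few reads.

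Set per kilobase of exon, the most abundant member averaged over both groups was KCNK1, a leak potassium channel of the K2P family, at 7.07 CPM per kb in ZFmut and 8.34 CPM per kb in WT libraries. KCNG1, KCNAB2, CACNB3 and KCNJ15 followed, at 5.25 to 8.85 CPM per kb. KCNG1 encodes a silent subunit that forms channels only with other pore subunits, and KCNAB2 and CACNB3 encode cytoplasmic beta subunits of potassium and calcium channels. By reads alone KCNMA1 led, with 16.7% of all member CPM in ZFmut and 12.3% in WT libraries, over the longest exon sequence but 1 of the tested members. Of other families, the most abundant member per kb was SCN8A among sodium pores, CACNA1H among calcium pores and HCN2 among HCN genes.

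Among the voltage-gated potassium pores (40 genes, 23 tested), 5 were higher and 5 lower in ZFmut. KCNH2 (ENSG00000055118.14, GRCh38 chromosome 7, 150944961 to 150978315, minus strand) showed the largest rise of the well-read members. It encodes the pore of the rapid delayed rectifier of the heart, also called HERG, which many tumour lines transcribe. KCNH2 reached 33.1, 35.1 and 35.7 CPM in ZFmut replicates 1 to 3, against 12.1, 14.7 and 14.8 CPM in WT replicates 1 to 3. Every ZFmut library exceeded every WT library, by 2.49-fold on average (log2 difference 1.31 ± 0.079, edgeR adjusted p = 2.05e-08). KCNH1, the gene of the ether-a-go-go channel, was higher by 0.26 ± 0.078 (edgeR adjusted p = 0.0169), and its relative KCNH5 was lower at -0.55 ± 0.11 (edgeR adjusted p = 0.00114). KCNH1 shares 36.9% of its exon sequence with genes on the other strand and 16.1% with genes on its own strand. Its call was lost without ZFmut replicate 3 (0.22) and without WT replicate 2 or 3 (0.25 in each). KCNH5 was at -0.37 with offsets for GC content and exon length and kept its call there. KCNH3, which did not pass, had a log2 difference of -0.31 (edgeR adjusted p = 0.0711). With those offsets it passed as lower at -0.47 (edgeR adjusted p = 0.00316). Summed over the 8 KCNH genes, the level was 8.57 ± 0.274 CPM per kb in ZFmut and 5.25 ± 0.244 CPM per kb in WT libraries (SD, n = 3 each). KCNH2 alone was at 5.89 CPM per kb in ZFmut and 2.36 CPM per kb in WT libraries. The difference of the sum was thus that of KCNH2, and the other KCNH genes together were not higher in ZFmut.

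The KCNQ genes form slow potassium channels, among them the M-type channels that damp repetitive firing of neurons. KCNQ3, a subunit of M-type channels, had 7.99, 6.05 and 6.91 CPM in ZFmut replicates 1 to 3, against 10.6, 11.3 and 10.3 CPM in WT replicates 1 to 3. The groups did not overlap, and KCNQ3 was lower in ZFmut (log2 difference -0.63 ± 0.10, edgeR adjusted p = 0.000206). KCNQ5 did not pass, with 15.1 ± 0.836 CPM in ZFmut and 15.3 ± 0.889 CPM in WT libraries (SD, n = 3 each; log2 difference -0.0055 ± 0.077, edgeR adjusted p = 0.966), and KCNQ1 had too few reads to be tested.

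The rapidly gated KCNC channels let neurons fire at high rates. KCNC1 was present at 2.19, 2.003 and 1.73 CPM in ZFmut replicates 1 to 3 and 1.35, 1.11 and 1.01 CPM in WT replicates 1 to 3, with no overlap, and was 1.66-fold higher in ZFmut (log2 difference 0.73 ± 0.18, edgeR adjusted p = 0.00635). KCNC4, more abundant per kb, did not pass, at 0.18 ± 0.093 (edgeR adjusted p = 0.148). With offsets for GC content and exon length it passed at 0.25. Genes of the transient A-type current split. KCND2 had 0.714, 1.00 and 0.815 CPM in ZFmut replicates 1 to 3, against 1.90, 1.69 and 1.39 CPM in WT replicates 1 to 3, and was lower at -0.99 ± 0.20 (edgeR adjusted p = 0.00153). KCND1 was higher by 0.32 ± 0.11 (edgeR adjusted p = 0.0445) with groups that overlapped, and its call ended under 8 of 16 alternatives, among them the fits without ZFmut replicate 2 or 3 or WT replicate 1 or 2 (0.25 to 0.32).

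Silent subunits also split. KCNG1 was higher by 0.44 ± 0.087, at 42.5, 50.4 and 51.5 CPM in ZFmut replicates 1 to 3 against 30.8, 38.5 and 37.2 CPM in WT replicates 1 to 3 (edgeR adjusted p = 0.00118). KCNF1 was lower, at 1.03, 0.668 and 0.717 CPM in ZFmut against 1.55, 1.16 and 1.99 CPM in WT replicates 1 to 3 (-0.98 ± 0.25, edgeR adjusted p = 0.00631). Without ZFmut replicate 3 the KCNF1 difference was -0.85 and missed the threshold (edgeR adjusted p = 0.0719). KCNS3, KCNG2, KCNG3 and KCNV2 did not pass. Of the KCNA genes, relatives of the fly Shaker channel, KCNA1, KCNA2 and KCNA7 were tested and had log2 differences of 0.40, 0.39 and 0.33, none past the threshold. Of the slow delayed rectifier genes, KCNB2 did not pass (-0.45 ± 0.27, edgeR adjusted p = 0.225).

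**Figure D2:**
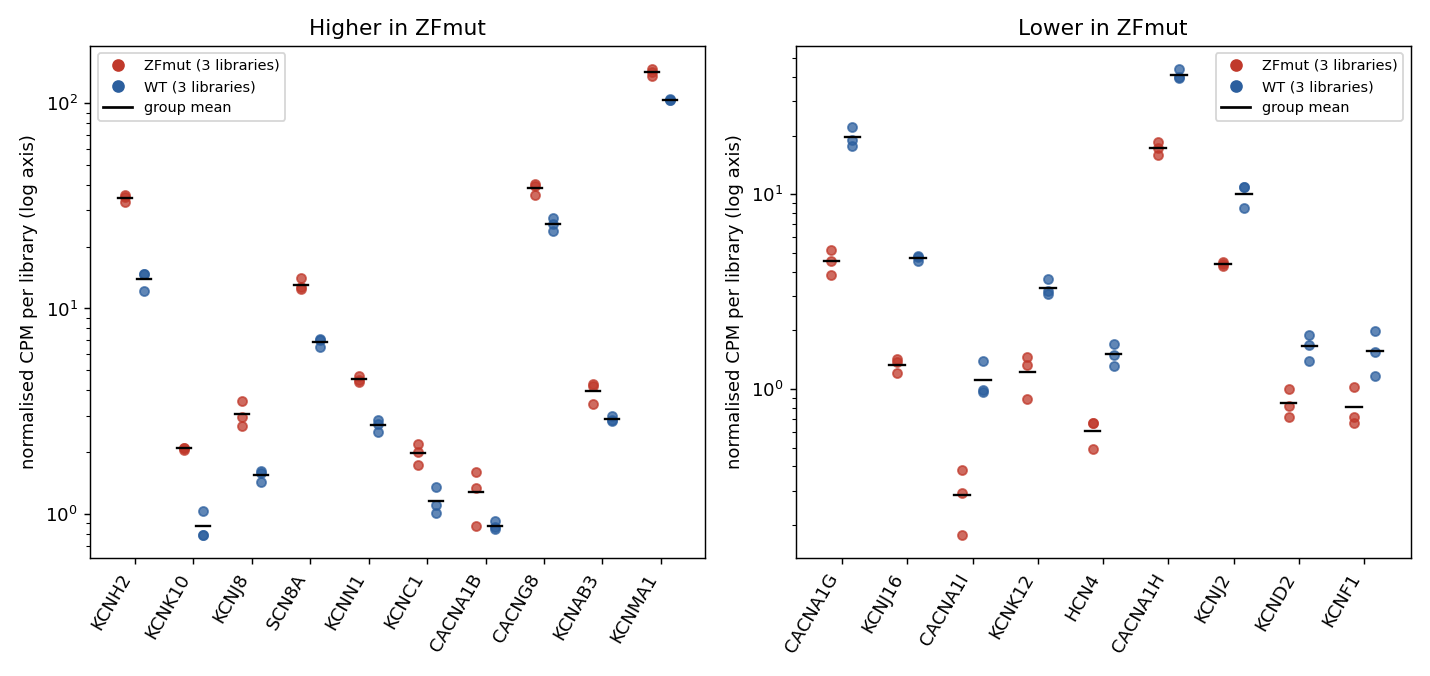
Normalised CPM on a log axis in each of the 3 ZFmut (red, left) and 3 WT (blue, right) libraries, with group means as bars, for 10 higher and 9 lower called channel genes of at least 1 CPM with large log2 differences. Groups are apart for every gene shown but CACNA1B, with KCNH2 at 33.1 to 35.7 CPM in ZFmut and 12.1 to 14.8 CPM in WT, and CACNA1G at 3.84 to 5.17 CPM in ZFmut and 17.7 to 22.3 CPM in WT.

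Accessory subunits of the voltage-gated potassium channels (14 genes, 9 tested) had 1 higher and 3 lower members. The cytoplasmic beta subunits resemble aldo-keto reductases and bind KCNA channels. KCNAB2 was lower, at 62.3, 63.4 and 67.4 CPM in ZFmut against 81.2, 80.8 and 79.6 CPM in WT replicates 1 to 3 (-0.32 ± 0.051, edgeR adjusted p = 0.00021). KCNAB1 was lower at -0.62 ± 0.22 (edgeR adjusted p = 0.0449) and KCNAB3 higher at 0.47 ± 0.13, at 3.44, 4.30 and 4.17 CPM in ZFmut against 3.01, 2.87 and 2.82 CPM in WT replicates 1 to 3 (edgeR adjusted p = 0.0106). All 3 beta subunit genes thus changed, in different directions, but the KCNAB3 call ended without ZFmut replicate 3 (0.42). The KCNAB1 call ended under 8 of 15 alternatives, among them the fits without ZFmut replicate 2 or 3 or any WT replicate (-0.70 to -0.42). KCNE4, a small membrane subunit that inhibits some KCNQ and KCNA channels, was lower at -0.35 ± 0.12 (edgeR adjusted p = 0.0351). Its call ended under 7 of 15 alternatives, among them the fits without ZFmut replicate 2 or 3 or WT replicate 2 or 3 (-0.41 to -0.27). KCNIP3, a calcium-binding partner of KCND channels that is also known as the repressor DREAM, did not pass (0.24 ± 0.15, edgeR adjusted p = 0.226). Without ZFmut replicate 1 it passed at 0.39 (edgeR adjusted p = 0.0142).

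Potassium channels opened by calcium or sodium (12 genes, 9 tested) had 2 higher and 1 lower member. KCNMA1 (ENSG00000156113.20, GRCh38 chromosome 10, 76869601 to 77638369, minus strand), the pore of the large-conductance BK channel, was higher in ZFmut, at 146, 135 and 142 CPM in replicates 1 to 3 against 104, 103 and 103 CPM in WT replicates 1 to 3. The fold was small, 1.37 (log2 difference 0.45 ± 0.050, edgeR adjusted p = 8.88e-06), and the spread within groups smaller. Its neuronal beta subunit KCNMB4 did not pass (-0.25 ± 0.12, edgeR adjusted p = 0.114), and KCNMB3 stood at -0.29, with 37.9% of its exon sequence shared with genes on the other strand. Small-conductance channels, which shape the pause after a spike, split. KCNN1 had 4.37, 4.67 and 4.49 CPM in ZFmut and 2.87, 2.73 and 2.50 CPM in WT replicates 1 to 3, 1.67-fold higher in ZFmut (0.74 ± 0.12, edgeR adjusted p = 0.000284). KCNN3 was lower at -0.37 ± 0.12 (edgeR adjusted p = 0.0328), a call that ended under 7 of 16 alternatives, among them the fits without ZFmut replicate 2 or 3 or WT replicate 2 or 3 (-0.41 to -0.27). KCNN2 (0.0076) and the intermediate-conductance KCNN4 (0.34 ± 0.14, edgeR adjusted p = 0.073) did not pass.

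Inward rectifiers (16 genes, 10 tested) let potassium in more readily than out and hold cells near the potassium equilibrium. In ZFmut 4 of them were lower and 2 higher. KCNJ2 (ENSG00000123700.4, GRCh38 chromosome 17, 70168673 to 70180048, plus strand), the classical strong inward rectifier of muscle and brain, had 4.28, 4.46 and 4.37 CPM in ZFmut replicates 1 to 3, against 10.8, 8.46 and 10.9 CPM in WT replicates 1 to 3. It was 2.28-fold lower in ZFmut (-1.19 ± 0.12, edgeR adjusted p = 2.33e-06). KCNJ16, which pairs with KCNJ10 in glia and kidney, had 1.21, 1.38 and 1.42 CPM in ZFmut replicates 1 to 3, against 4.77, 4.56 and 4.84 CPM in WT replicates 1 to 3. That difference was 3.44-fold (-1.78 ± 0.14, edgeR adjusted p = 2.19e-07), while KCNJ10 stood at 0.45 ± 0.17 and did not pass (edgeR adjusted p = 0.0548), though it did with the offsets for GC content and exon length. KCNJ16 and KCNJ2 are neighbours on the plus strand of chromosome 17, 33065 bp apart, at 70053429 to 70135608 and 70168673 to 70180048. KCNJ4, another strong rectifier, had 1.07, 1.29 and 1.66 CPM in ZFmut and 2.59, 2.43 and 3.17 CPM in WT replicates 1 to 3 and was lower (-0.90 ± 0.18, edgeR adjusted p = 0.00138), with 12.6% of its exon sequence shared with genes on the other strand.

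KCNJ8, the pore of ATP-sensitive channels in vessels, was the inward rectifier with the largest rise. It had 2.68, 3.55 and 2.95 CPM in ZFmut replicates 1 to 3, against 1.62, 1.58 and 1.42 CPM in WT replicates 1 to 3, 1.96-fold higher in ZFmut (0.97 ± 0.16, edgeR adjusted p = 0.00023), and shares 10.8% of its exon sequence with genes on the other strand. KCNJ11, the ATP-sensitive pore of beta cells, had under 1 CPM and did not pass (-0.58 ± 0.34, edgeR adjusted p = 0.202). On chromosome 21 KCNJ6 and KCNJ15 lie 34204 bp apart and differed in direction. KCNJ6, a target of G protein beta and gamma subunits, was lower at -0.63 ± 0.19 (edgeR adjusted p = 0.0192), a call that ended under 5 of 15 alternatives, among them the fits without ZFmut replicate 2 (-0.56) or WT replicate 2 (-0.50). KCNJ15, the most abundant inward rectifier per kb, was higher by 0.25 ± 0.055, at 67.6, 63.0 and 63.4 CPM in ZFmut and 52.5, 56.5 and 54.1 CPM in WT replicates 1 to 3 (edgeR adjusted p = 0.00266). KCNJ14 did not pass (-0.0056 ± 0.071, edgeR adjusted p = 0.963), and KCNJ12 is nearly identical to KCNJ18, so its reads are uncertain.

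K2P leak channels (15 genes, 11 tested) set the resting potential and respond to acid, stretch, lipids or anaesthetics. Among them 2 were higher and 4 lower in ZFmut. KCNK10 (ENSG00000100433.15, GRCh38 chromosome 14, 88180103 to 88326907, minus strand), a stretch- and lipid-activated channel of the TREK group, had 2.10, 2.04 and 2.10 CPM in ZFmut replicates 1 to 3, against 1.04, 0.792 and 0.791 CPM in WT replicates 1 to 3, 2.43-fold higher in ZFmut (1.28 ± 0.18, edgeR adjusted p = 7.65e-05). Its close relative KCNK2 was lower at -0.53 ± 0.16 (edgeR adjusted p = 0.0191), a call that ended under 5 of 15 alternatives, among them the fits without WT replicate 2 (-0.47) or 3 (-0.51). KCNK12, of the THIK group, had 0.892, 1.46 and 1.34 CPM in ZFmut replicates 1 to 3, against 3.07, 3.19 and 3.67 CPM in WT replicates 1 to 3, 2.60-fold lower in ZFmut (-1.38 ± 0.17, edgeR adjusted p = 2.21e-05). KCNK1 was lower by a small amount (-0.24 ± 0.065, edgeR adjusted p = 0.00891), and without ZFmut replicate 3 it missed the threshold at -0.21 (edgeR adjusted p = 0.0629). KCNK5 and KCNK6 did not pass, at 0.046 ± 0.10 (edgeR adjusted p = 0.769) and 0.19 ± 0.079 (edgeR adjusted p = 0.0816). KCNK6 passed without ZFmut replicate 1 (0.22) and without WT replicate 2 (0.26).

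The acid-sensitive TASK channels KCNK3 and KCNK9 had the largest log2 differences of all members, in opposite directions and on few reads. KCNK3 had 14, 17 and 80 reads in ZFmut replicates 1 to 3, against 0, 4 and 2 reads in WT replicates 1 to 3. Scaled to library size, summed reads were 14.7 times higher in ZFmut, with a 95% exact binomial interval of 6.52 to 40.8 (edgeR adjusted p = 1.98e-05). KCNK9 had 1, 1 and 2 reads in ZFmut replicates 1 to 3, against 13, 28 and 15 reads in WT replicates 1 to 3. Its summed reads were 17.7 times higher in WT than in ZFmut, with an interval of 6.53 to 67.1 (edgeR adjusted p = 2.22e-05). Both stayed under 1 CPM in every library, and the intervals cover counting error only.

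Sodium channel pores (10 genes, 6 tested) drive the upstroke of the action potential. SCN8A (ENSG00000196876.13, GRCh38 chromosome 12, 51590266 to 51812864, plus strand), the pore found at axon initial segments and nodes, alone passed, with 14.1, 12.4 and 12.7 CPM in ZFmut replicates 1 to 3 against 7.01, 6.51 and 7.09 CPM in WT replicates 1 to 3. It was 1.90-fold higher in ZFmut, without overlap (0.93 ± 0.087, edgeR adjusted p = 1.63e-06). SCN2A, the pore of early axons, did not pass, with 14.2, 8.85 and 11.2 CPM in ZFmut and 9.77, 8.94 and 8.42 CPM in WT replicates 1 to 3 (0.33 ± 0.13, edgeR adjusted p = 0.0599). ZFmut replicate 2 was within the WT range, and SCN2A passed under 9 of 16 alternatives, at 0.46 without that library, at 0.39 without WT replicate 1 and at 0.54 with the offsets for GC content and exon length. SCN3A, SCN9A and SCN11A had -0.36, 0.44 and -0.43 on the log2 scale and did not pass. With the same offsets SCN9A passed as higher at 0.62 (edgeR adjusted p = 0.0139). None of the 3 tested beta subunits passed in edgeR, among them SCN3B at -0.23 ± 0.14 (edgeR adjusted p = 0.228) and SCN4B at -0.0017 ± 0.13 (edgeR adjusted p = 0.994). Summed sodium pore level was 1.87 ± 0.190 CPM per kb in ZFmut and 1.43 ± 0.0954 CPM per kb in WT libraries (SD, n = 3 each). Of this sum, SCN8A alone made up 0.87 CPM per kb in ZFmut and 0.46 CPM per kb in WT libraries.

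Calcium channel pores (9 genes, 6 tested) had 4 lower and 1 higher member, and all 3 T-type genes were lower in ZFmut. T-type channels give low-threshold calcium spikes in thalamic and cerebellar neurons and a window current at rest in other cells. CACNA1G (ENSG00000006283.17, GRCh38 chromosome 17, 50561068 to 50627474, plus strand) had 3.84, 5.17 and 4.56 CPM in ZFmut replicates 1 to 3, against 17.7, 18.9 and 22.3 CPM in WT replicates 1 to 3, 4.31-fold lower in ZFmut (-2.11 ± 0.11, edgeR adjusted p = 4.53e-09). CACNA1H (ENSG00000196557.10, GRCh38 chromosome 16, 1153121 to 1221772, plus strand), the most abundant calcium pore per kb, had 15.9, 18.7 and 17.3 CPM in ZFmut replicates 1 to 3, against 39.5, 39.9 and 43.9 CPM in WT replicates 1 to 3. It was 2.38-fold lower in ZFmut (-1.25 ± 0.073, edgeR adjusted p = 1.48e-08). CACNA1I followed with 4, 7 and 39 reads in ZFmut replicates 1 to 3 and 28, 56 and 44 reads in WT replicates 1 to 3, or 0.284 ± 0.102 against 1.12 ± 0.241 CPM (SD, n = 3 each), 3.36-fold lower in ZFmut (-1.75 ± 0.29, edgeR adjusted p = 0.000292). The groups of all 3 genes were apart. Summed per kb, the T-type level was 2.50 ± 0.235 CPM per kb in ZFmut and 6.90 ± 0.548 CPM per kb in WT libraries (SD, n = 3 each), 2.76 times higher in WT.

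Of the 3 tested high-threshold calcium pores, 1 was lower, 1 was called higher and 1 did not pass. CACNA1C, the L-type pore of heart and neurons, had 13.3, 14.6 and 15.1 CPM in ZFmut replicates 1 to 3, against 20.03, 22.1 and 19.97 CPM in WT replicates 1 to 3, and was lower at -0.52 ± 0.076 (edgeR adjusted p = 9.53e-05). CACNA1D, a further L-type pore, did not pass (-0.067 ± 0.17, edgeR adjusted p = 0.797). CACNA1B, the N-type pore of nerve terminals, had 1.34, 0.876 and 1.60 CPM in ZFmut replicates 1 to 3, against 0.863, 0.845 and 0.918 CPM in WT replicates 1 to 3, and was called higher (0.65 ± 0.23, edgeR adjusted p = 0.0383). ZFmut replicate 2 lay within the WT range, and without ZFmut replicate 3 the difference was 0.34 and did not pass (edgeR adjusted p = 0.422). Its call ended under 8 of 15 alternatives, among them also the fits without each WT replicate (0.61 to 0.67) and DESeq2 (adjusted p = 0.118).

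Calcium channel accessory subunits (16 genes, 12 tested) had 2 higher and 2 lower members. The gamma genes CACNG7, CACNG8 and CACNG6 lie side by side on chromosome 19 and encode, in the case of CACNG7 and CACNG8, subunits that traffic AMPA receptors. CACNG8 (ENSG00000142408.2, GRCh38 chromosome 19, 53963040 to 53990215, plus strand) had 39.5, 35.6 and 40.2 CPM in ZFmut replicates 1 to 3, against 23.8, 27.7 and 25.6 CPM in WT replicates 1 to 3, and was higher (0.58 ± 0.072, edgeR adjusted p = 2.36e-05). Its neighbours CACNG7 and CACNG6 did not pass, at -0.12 ± 0.082 (edgeR adjusted p = 0.274) and 0.49 ± 0.28 (edgeR adjusted p = 0.193). With offsets for GC content and exon length CACNG7 passed as lower at -0.25 (edgeR adjusted p = 0.0056). Beta subunits carry pores to the membrane. CACNB4 was lower, at 1.249, 1.46 and 1.69 CPM in ZFmut and 2.87, 3.10 and 2.91 CPM in WT replicates 1 to 3 (-0.95 ± 0.15, edgeR adjusted p = 0.000238). CACNB1 was higher by 0.38 ± 0.11 (edgeR adjusted p = 0.0118), but with ZFmut replicate 3 left out it stood at 0.33 and did not pass (edgeR adjusted p = 0.0804). CACNB3, the most abundant accessory gene per kb, did not pass, with 46.5 ± 3.28 CPM in ZFmut and 46.9 ± 0.726 CPM in WT libraries (SD, n = 3 each; -0.0041 ± 0.061, edgeR adjusted p = 0.968). Of the alpha2delta genes, which bind gabapentin-type drugs in the case of CACNA2D1 and CACNA2D2, CACNA2D1 was lower at -0.22 ± 0.073 (edgeR adjusted p = 0.0261). With the same offsets it stood at -0.04 and did not pass (edgeR adjusted p = 0.617), nor did it without ZFmut replicate 2 or 3 or WT replicate 1 or 2 (-0.23 to -0.17). CACNA2D4 did not pass (-0.041 ± 0.11, edgeR adjusted p = 0.803).

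**Figure D3:**
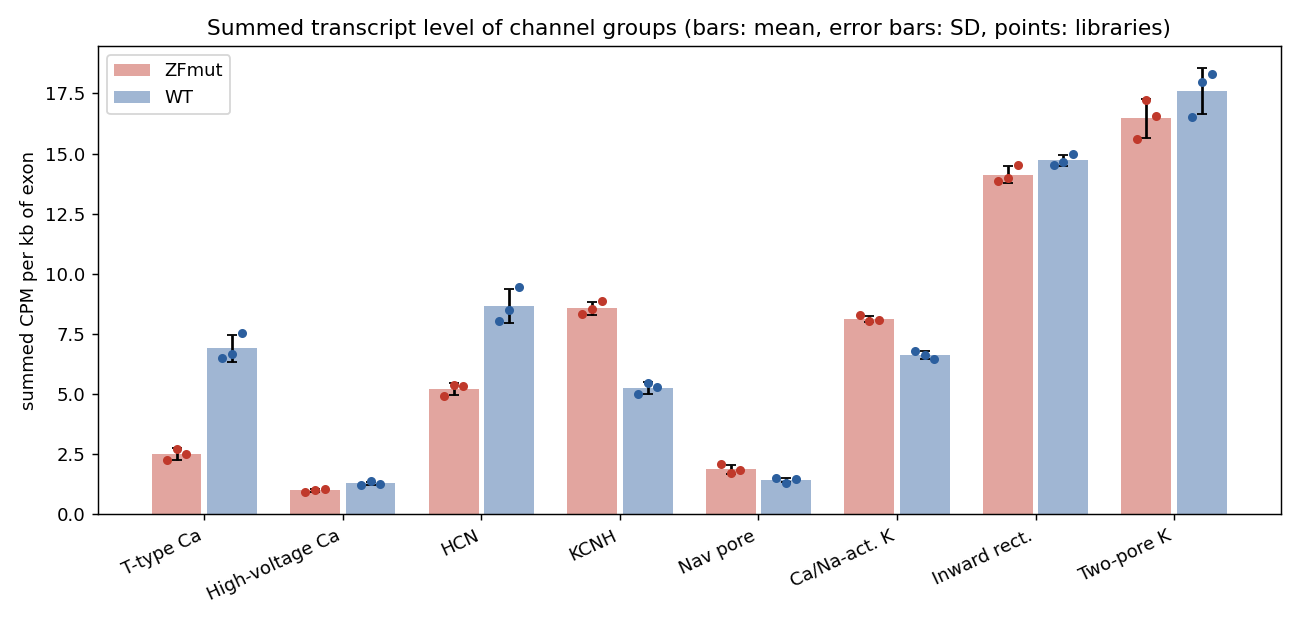
Summed transcript level (CPM per kb of exon) of 8 selected groups of channel genes, with ZFmut bars left and WT bars right, as the mean and SD of 3 libraries with each library as a point. The accessory subunit families and the voltage-gated potassium pores as a whole (27.64 in ZFmut and 22.95 in WT) are not drawn. The T-type sum was 2.50 in ZFmut and 6.90 in WT, the HCN sum 5.21 in ZFmut and 8.66 in WT, and the KCNH sum 8.57 in ZFmut and 5.25 in WT. Of the KCNH sum, KCNH2 alone made up 5.89 in ZFmut and 2.36 in WT.

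All 3 tested HCN genes were lower in ZFmut. HCN2 (ENSG00000099822.2, GRCh38 chromosome 19, 589893 to 617159, plus strand), common in brain, had 9.91, 11.2 and 11.2 CPM in ZFmut replicates 1 to 3, against 15.2, 15.6 and 18.3 CPM in WT replicates 1 to 3 (-0.59 ± 0.088, edgeR adjusted p = 0.000127). HCN3 (ENSG00000143630.9, GRCh38 chromosome 1, 155277583 to 155289848, plus strand) had 7.99, 8.26 and 8.06 CPM in ZFmut replicates 1 to 3, against 14.0, 15.3 and 15.9 CPM in WT replicates 1 to 3, 1.86-fold lower in ZFmut (-0.90 ± 0.080, edgeR adjusted p = 1.04e-06), with 13.5% of its exon sequence shared with genes on the other strand. HCN4 (ENSG00000138622.3, GRCh38 chromosome 15, 73319859 to 73369264, minus strand), the main pacemaker isoform of the sinoatrial node, had 0.491, 0.668 and 0.668 CPM in ZFmut replicates 1 to 3, against 1.31, 1.496 and 1.71 CPM in WT replicates 1 to 3. It was 2.38-fold lower in ZFmut (-1.25 ± 0.21, edgeR adjusted p = 0.000366). No library of a group reached the range of the other in any of the 3 genes. The summed HCN level was 5.21 ± 0.257 CPM per kb in ZFmut and 8.66 ± 0.718 CPM per kb in WT libraries (SD, n = 3 each).

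The promoters of these 3 HCN genes, which lie on different chromosomes and moved in the same direction, are shown from RefSeq on GRCh38.p14. Each window runs from 250 bases before to 50 bases after the annotated start, 5′ to 3′ on the strand of the gene. They are chr19:589631-589930 on the plus strand for HCN2, chr1:155277213-155277512 on the plus strand for HCN3 and chr15:73368909-73369208 on the minus strand for HCN4. Capitals mark the GC box GGGCGG or its reverse complement CCGCCC, bound by Sp1-type zinc-finger factors.
HCN2: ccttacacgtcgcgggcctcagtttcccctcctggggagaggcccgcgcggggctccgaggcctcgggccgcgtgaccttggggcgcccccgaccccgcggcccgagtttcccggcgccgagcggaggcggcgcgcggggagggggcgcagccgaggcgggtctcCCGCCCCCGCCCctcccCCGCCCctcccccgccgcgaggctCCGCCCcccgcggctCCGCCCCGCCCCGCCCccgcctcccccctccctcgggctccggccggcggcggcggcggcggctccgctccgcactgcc
HCN3: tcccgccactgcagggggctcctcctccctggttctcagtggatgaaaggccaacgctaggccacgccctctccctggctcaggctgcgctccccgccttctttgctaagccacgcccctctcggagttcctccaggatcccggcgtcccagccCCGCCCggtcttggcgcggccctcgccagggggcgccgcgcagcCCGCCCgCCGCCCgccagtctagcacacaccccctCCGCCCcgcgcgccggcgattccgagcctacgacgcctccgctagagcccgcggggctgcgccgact
HCN4: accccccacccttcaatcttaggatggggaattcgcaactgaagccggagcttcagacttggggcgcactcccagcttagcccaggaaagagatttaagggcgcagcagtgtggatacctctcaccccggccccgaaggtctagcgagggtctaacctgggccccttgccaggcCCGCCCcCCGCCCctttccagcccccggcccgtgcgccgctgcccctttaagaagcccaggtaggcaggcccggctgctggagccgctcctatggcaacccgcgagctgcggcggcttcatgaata
HCN2 held 7 matches, some of them touching or overlapping, at a GC content of 84.7%. HCN3 held 4 at 74.0% GC and HCN4 held 2 at 65.0% GC.

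Of the 140 members, 100 had a RefSeq promoter window, 152 windows in all, with a median GC content of 64.2% against 58.7% over 35116 windows of all genes. The GC box GGGCGG, searched on both strands, was in 80 member windows (52.6%) and in 44.95% of all windows. It was in 16 of 21 windows of members higher in ZFmut and in 14 of 35 windows of members lower in ZFmut. Some members have several windows, so these are counts of windows and not of genes. The letters CGACCACC, the core known for sites of the ZBTB7 family, were searched on both strands and found in 0 of the 152 member windows, against 0.558% of all windows. TATAAA, likewise on both strands, was in 11 member windows (7.24%) and in 11.5% of all windows, among them the windows of KCNH2 and KCNK1. These matches describe letters in a window and say nothing on binding.

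Genes that work with these channels were also read, from 4 lists of 135 genes, of which 104 were tested. Of these 24 (23.1%) were higher and 31 (29.8%) lower in ZFmut, beside the backgrounds of 17.2% and 18.4%. With offsets for GC content and exon length the balance turned, with 28 higher and 24 lower. The balance of all 18683 tested genes turned as well, with 4574 higher and 3254 lower against 3207 and 3442 without the offsets. Partners of channel complexes (26 tested) had 5 higher and 8 lower. CNTNAP2, which clusters KCNA channels beside nodes of Ranvier, had 83.8, 80.3 and 83.9 CPM in ZFmut replicates 1 to 3, against 203, 194 and 188 CPM in WT replicates 1 to 3 (-1.24 ± 0.053, edgeR adjusted p = 6.62e-10). Its relative CNTNAP1, which seals the paranode, was higher by 0.60 ± 0.082 (edgeR adjusted p = 5.41e-05). STAC2, which binds L-type calcium channels, was higher too (0.92 ± 0.13, edgeR adjusted p = 6.6e-05).

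Other cation channels (34 tested) had 8 higher and 6 lower. SCNN1A, the alpha subunit of the epithelial sodium channel, was 2.26-fold higher in ZFmut (1.17 ± 0.14, edgeR adjusted p = 1.67e-05), and TRPV4, opened by swelling and warmth, 2.05-fold (1.03 ± 0.14, edgeR adjusted p = 6.15e-05). NALCN, the sodium leak channel that sets neuronal rest, was 3.21-fold lower in ZFmut, at 0.402, 0.292 and 0.304 CPM in ZFmut replicates 1 to 3 against 1.42, 0.809 and 0.981 CPM in WT replicates 1 to 3 (-1.68 ± 0.30, edgeR adjusted p = 0.000518). Sodium and potassium pumps and cotransporters (17 tested) had 6 higher and 5 lower. The potassium-chloride cotransporter SLC12A7 was lower (-0.64 ± 0.054, edgeR adjusted p = 5.69e-07), its relative SLC12A4 higher (0.43 ± 0.065, edgeR adjusted p = 0.00014), and ATP1B2, a glial beta subunit of the sodium pump, 2.23-fold higher (1.16 ± 0.15, edgeR adjusted p = 3.51e-05).

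Calcium pumps, exchangers and store channels (27 tested) had 5 higher and 12 lower. ATP2A3, a pump that fills the endoplasmic reticulum, had 17.1, 19.6 and 19.2 CPM in ZFmut replicates 1 to 3, against 8.53, 8.64 and 7.98 CPM in WT replicates 1 to 3 (1.16 ± 0.081, edgeR adjusted p = 8.45e-08). ITPR1, the store release channel of Purkinje cells, was lower (-0.66 ± 0.057, edgeR adjusted p = 7.34e-07), and ORAI2, a pore of store-operated entry, higher (0.46 ± 0.055, edgeR adjusted p = 1.76e-05). The sodium-calcium exchangers, singled out after their values were seen, had 3 of 4 members lower: SLC8A1 at -0.70 ± 0.088 (edgeR adjusted p = 2.79e-05), SLC8A2 at -0.73 ± 0.18 (0.00507) and SLC8A3 at -0.70 ± 0.15 (0.00172). The fourth, SLC8B1 of mitochondria, did not pass (0.076 ± 0.081, edgeR adjusted p = 0.505).

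Of the 48 members left untested for low counts, 4 had no read in any library (KCNA6, KCNJ3, CACNG3 and SCN10A) and 17 had 1 to 10 reads over all 6 libraries. All of the exon sequence of KCNA6 lies inside exons of another gene on its strand, so a read there fits both genes. KCNE5 had the most reads of the untested members, 49 in ZFmut and 38 in WT libraries, followed by KCNS1 with 39 in ZFmut and 28 in WT and KCNMB1 with 31 in ZFmut and 36 in WT.

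Of the 42 called members, 29 (11 higher and 18 lower) passed in the same direction under all alternatives run for them other than a minimum fold change. KCNH2, SCN8A, the 3 T-type genes and the 3 tested HCN genes were among them. Among these alternatives the most calls were lost without ZFmut replicate 3, the deepest library, where 31 of the 42 kept theirs. With offsets that remove trends over GC content and exon length in each library, 36 of the 42 kept their call. The offsets moved the split of all called genes to 4574 higher and 3254 lower (58.4% higher), against 3207 and 3442 (48.2% higher) without them. Of the 92 tested members, 20 were higher and 24 lower with the offsets. Their median log2 difference was then -0.098, against 0.042 over all 18683 tested genes.

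**Figure D4:**
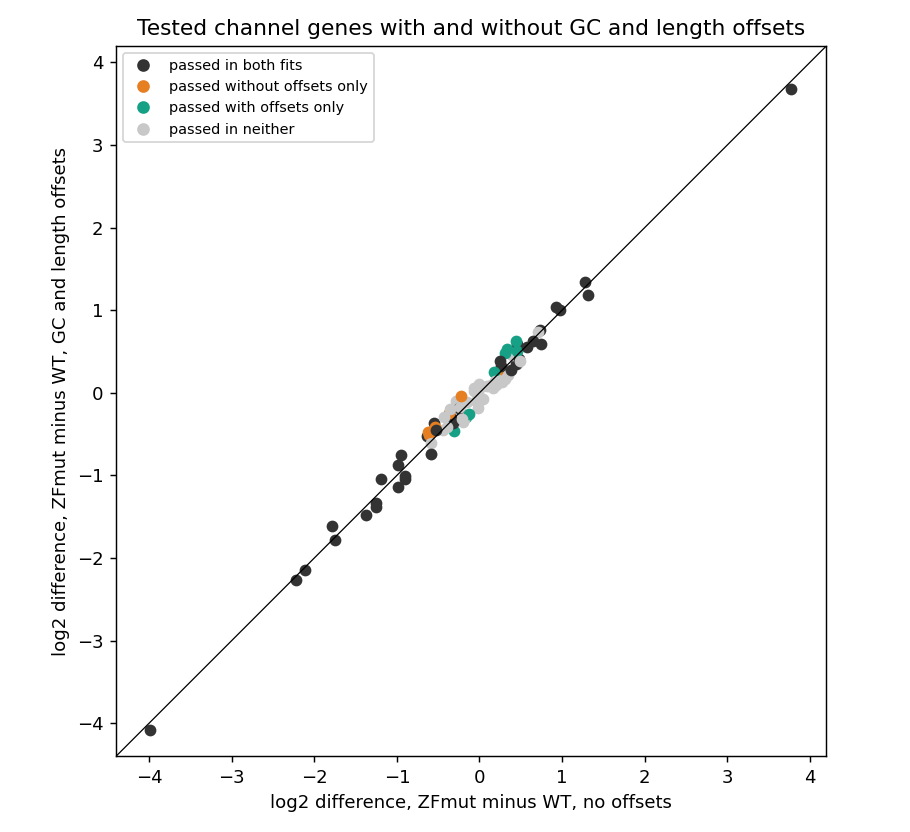
Log2 differences (ZFmut minus WT) of the 92 tested channel genes without (horizontal axis) and with (vertical axis) offsets for GC content and exon length, each point a gene and the line marking equal values. Points lie near the line, and the genes that passed in only 1 of the fits lie between -0.63 and 0.45 on the horizontal axis.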

How the data were processed

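RNA of 3 ZFmut and 3 WT libraries was compared; groups and replicate numbers came from the sample titles. The authors deposited unnormalised read counts per gene. The submitters' processing notes name the GRCh38 build with HTSeq, TopHat2 2.0.9, DESeq2 and cutadapt; annotation release and strand setting were not given in the sources used here, and per the labels' protocols the NEBNext Ultra RNA kit was used, which does not mark strand. Reads of a gene and of an overlapping gene on the other strand can therefore not be told apart. Summary lines that name no gene were left out; they held 7.71 to 8.08% of reads that fit several genes and 16.1 to 19.4% that aligned to several places.

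Symbols, positions and exon lengths came from GENCODE release 29, which matched 94.1% of 60554 identifiers. Counts were compared with edgeR 4.0.16 in R 4.3.3 (TMM, filterByExpr, quasi-likelihood F test, two-sided, no covariates, Benjamini-Hochberg over 18683 genes, threshold 0.05). The biological coefficient of variation was 6.27%. Levels of different genes were compared as CPM per kb of exon, except where reads, sums or shares of CPM, or a CPM threshold are named. Ratios of few reads have 95% exact binomial intervals (SciPy 1.17.1). The fits were tested on simulated data with known answers.

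The members and lists were chosen with earlier results of these data known. Text names the 10 called members of at least 1 CPM with the largest log2 difference in each direction, the most abundant member per kb of each of 10 families, members of at least 5 CPM that did not pass, and up to 3 called genes of smallest p per partner list; other called members are given by their difference, and genes named beyond these were chosen after their values were seen. A few members are not reported here. Alternatives were median-of-ratios and upper-quartile scaling, DESeq2 1.42.0, limma-voom (limma 3.58.1), no filter, at least 5 CPM in 3 libraries, each library left out, the replicate number as a block, loess offsets for GC content and exon length (span 0.5) without and with the block, thinning, and a minimum fold change of 1.5. No pair of libraries of a group agreed within sampling noise (chi-square of 3.58 to 8.96 per degree of freedom).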

Additional observations from a re-analysis of the deposited data

How the results depend on the processing

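The counts of higher and lower members kept within 1.5 times of 16 and 26 under all alternatives but the stricter filter and the minimum fold change, and no called member changed sign. With at least 5 CPM in 3 libraries, 33 members and 70 partner genes were tested. Then 9 members were higher and 12 lower, and 12 partner genes were higher and 26 lower. Of all 11870 genes left by this filter, 2547 were higher and 2735 lower. The median of the members moved to -0.0098, against -0.00998 over all of these genes, so the lower median of the main fit was not seen there. All 21 called members left by that filter kept their call. Against a minimum fold change of 1.5, 4 members were higher (KCNH2, KCNK3, KCNK10 and SCN8A) and 10 lower, 4 partner genes were higher and 2 lower, and ZBTB7B, at -0.65, did not pass (edgeR adjusted p = 0.692). Of all 18683 tested genes, 272 were higher and 433 lower against that minimum. Leaving out a library gave 11 to 18 higher and 21 to 27 lower members, while 2266 to 3934 of all tested genes were higher and 2504 to 3782 lower. Replicate numbers were not taken as pairs, because the correlations of deviations from the group means between same-numbered libraries were 0.16, 0.077 and 0.064, not all above 0.1, although each library correlated best with its own number. With the replicate block, 18 members were higher and 28 lower, and 4226 of all genes were higher and 4466 lower. Members that passed in addition with the block included KCNK6 (0.19), KCNN4 (0.38), SCN2A (0.31) and SCN11A (-0.60), and CACNA1B (0.53) did not pass. With offsets and block together, 18 members were higher and 26 lower, and 29 partner genes were higher and 25 lower. Of all 18683 tested genes, 4918 were then higher and 3400 lower. Under thinning to the smallest library, 87 members were tested, 14 higher and 24 lower, beside 2840 higher and 3063 lower of all 17724 genes tested there. In a library a count of 0 allows up to 0.0295 to 0.134 CPM, so differences of members near that level were not detectable in the shallower libraries.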

Other observations

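Positions of the members were also compared. Within 1000000 bp of another member lay 60 members, in 25 clusters. On chromosome 1, KCNN3 (154697455 to 154870280) and HCN3 (155277583 to 155289848), both lower in ZFmut, lie on either side of the cell's own ZBTB7B gene (155002630 to 155018522). On chromosome 2, SCN3A, SCN2A and SCN9A lie close together, with log2 differences of -0.36, 0.33 and 0.44, none past the threshold.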
